A study of Rattus norvegicus with 30 samples.

Results

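Gut hormone and enteroendocrine genes were followed in the stomach, jejunum and colon of rats given the chemotherapy drug irinotecan. The 10 genes were Gast, Ghrl, Sst, Chga, Cck, Gip, Nts, Gcg, Pyy and Tph1, taken as array probe sets whose annotation names exactly 1 gene. Of these, 9 were measured, each by 1 probe set, among 14217 genes with such a probe set. No other probe set was at hand to check them, and Tph1 was not analysed here.

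Female DA rats aged 10 weeks were studied, 30 in all and 6 per time. They were killed 1, 6, 24 or 72 h after a single intraperitoneal dose of 200 mg/kg irinotecan given under light halothane anaesthesia, and the 0 h rats, which had no irinotecan, were the controls. RNA of whole tissue was pooled from 3 rats at a time, so that each of the 15 groups (3 tissues at 5 times) has 2 Affymetrix rat expression arrays and the series has 30. Stomach, jejunum and colon were taken from each rat, and all 4 treated times of a tissue share its 2 untreated arrays. The sources used here do not say whether 0 h rats had the anaesthetic or a sham injection, nor which rats went into which pool. With pools as replicates, every p-value measures the spread between pools, not between rats.

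Enteroendocrine cells are scattered single cells of the gut epithelium that sense the lumen and release peptide hormones or serotonin from dense granules. Their products are zoned along the gut: gastrin and ghrelin belong to the stomach, the incretin GIP, cholecystokinin and neurotensin to the small intestine, and glucagon-like peptides and peptide YY to the distal gut. The epithelium that holds them is renewed from crypt stem cells, a main site of injury by irinotecan, whose active metabolite blocks topoisomerase I. In whole tissue, fewer cells of a type and less RNA per cell cannot be told apart.

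To show the regulatory sequence of the genes with a regional pattern, the 250 bases before the annotated start site of 4 of them are given 5′ to 3′ on the gene's strand, from RefSeq on the GRCr8 assembly. Gcg and Pyy are the colon genes with the same lowest and the same highest array, and Gip and Nts were high in the jejunum alone. Capitals mark matches, on either strand, to 5 short motifs of core and endocrine promoters. The core promoter box was searched as TATAAA. The letters used for zinc finger factors of the GATA family, which act in proximal gut, were GATAAG. The E-box bound by dimers of the endocrine factor NeuroD1 was searched as CATCTG. The element that answers to cyclic AMP was searched as TGACGTCA, and the site of the general factor NF-Y as CCAAT.
Gcg (chr3:67531534-67531783, minus strand): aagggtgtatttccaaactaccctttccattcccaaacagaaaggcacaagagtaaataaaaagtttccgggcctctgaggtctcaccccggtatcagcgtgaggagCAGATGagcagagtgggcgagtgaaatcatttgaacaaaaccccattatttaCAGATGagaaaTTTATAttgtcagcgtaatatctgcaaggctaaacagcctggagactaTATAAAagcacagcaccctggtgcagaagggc
Pyy (chr10:87562471-87562720, minus strand): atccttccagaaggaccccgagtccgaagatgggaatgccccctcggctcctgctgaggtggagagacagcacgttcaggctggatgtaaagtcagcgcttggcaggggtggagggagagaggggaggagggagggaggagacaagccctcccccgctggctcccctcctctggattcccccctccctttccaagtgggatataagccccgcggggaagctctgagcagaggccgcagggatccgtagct
Gip (chr10:81464820-81465069, plus strand): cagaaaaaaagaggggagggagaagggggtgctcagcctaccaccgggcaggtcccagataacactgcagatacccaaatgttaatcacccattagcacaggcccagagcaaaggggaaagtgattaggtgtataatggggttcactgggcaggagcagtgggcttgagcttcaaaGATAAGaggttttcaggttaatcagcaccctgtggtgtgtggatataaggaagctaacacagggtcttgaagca
Nts (chr7:39460889-39461138, minus strand): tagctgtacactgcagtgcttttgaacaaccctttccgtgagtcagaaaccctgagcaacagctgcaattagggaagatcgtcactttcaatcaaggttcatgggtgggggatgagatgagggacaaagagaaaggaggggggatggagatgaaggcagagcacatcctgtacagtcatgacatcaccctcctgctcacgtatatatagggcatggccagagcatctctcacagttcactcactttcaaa
The Gcg stretch holds TATAAA at -32 to -27 and, on the reverse strand, at -80 to -75, counted back from the start site. It also holds CATCTG on the reverse strand at -143 to -138 and at -91 to -86. The Gip stretch holds GATAAG at -74 to -69, and the Pyy and Nts stretches hold none of the 5 motifs. Of all 33469 stretches of that length in the table, searched the same way and without regard to overlap, 12.9% held the core box and 6.18% the GATA letters. The E-box letters stood in 13.96%, the cyclic AMP element in 1.59% and the NF-Y letters in 34.0%. A match describes letters only, and these data do not measure binding.

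All levels below are log2 RMA signals, in which a difference of 1 is a doubling, and they are compared between arrays of a gene, never between genes. Array medians lay between 6.96 and 7.05, and replicate arrays correlated at 0.947 to 0.991 in stomach, 0.972 to 0.996 in jejunum and 0.980 to 0.993 in colon. The tissue labels matched their markers. Atp4b, the parietal cell proton pump subunit, was at 12.52 to 13.51 in stomach. Fabp2, an enterocyte fatty acid binder, was at 13.29 to 13.52 in jejunum, and Car1, a colonocyte carbonic anhydrase, at 11.99 to 13.44 in colon. The ileal marker Fabp6 stayed at 5.92 to 7.26 in jejunum. It is 1 of 3 markers listed for distal small intestine, with Slc10a2 and Cubn. The log2 of their summed signals was 10.43 to 11.52 in jejunum, 7.49 to 7.75 in stomach and 7.32 to 7.70 in colon. Not all 3 were therefore low in jejunum.

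Several arrays stood apart. The 3′ signal of the control gene GAPDH, which exceeds the 5′ signal when RNA is broken, lay 0.82 above it on jejunum 24 h replicate 1, against at most 0.38 on the other jejunum arrays. It lay 0.56 above it on stomach 24 h replicate 1, against at most 0.29 elsewhere in stomach. Gastric genes were high on colon 24 h replicate 1, where Pgc (a chief cell pepsinogen) was at 13.67. Genes of the pancreatic acinar list, 11 of 12 measured, had a median of 12.15 on colon 72 h replicate 2, 9.20 on colon 6 h replicate 1 and 13.44 on stomach 72 h replicate 1. These values are repeated beside the results they touch, with fits that leave such arrays out.

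In untreated rats most of the hormone genes differed sharply between regions of the gut. Stomach was higher than jejunum in 4 genes (Ghrl, Gast, Chga and Sst) and lower in 4 (Gip, Nts, Gcg and Cck), so that 8 of 9 were past an adjusted p of 0.05 (limma, Benjamini-Hochberg over 31042 probe sets), while 32.2% of all probe sets were. Against colon, stomach differed in 7 of 9 (Ghrl, Gast, Chga and Sst higher, Pyy, Gcg and Cck lower; 33.1% of all). Jejunum and colon differed in 4 of 9, with Gip, Nts and Cck higher in jejunum and Pyy higher in colon (45.7% of all). These counts use the spread of all 30 arrays, 2 pools per group. With any 1 of the 4 arrays compared left out, 6 to 7 members passed between stomach and jejunum, 4 to 6 between stomach and colon, and 4 between jejunum and colon.

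**Figure D1:**
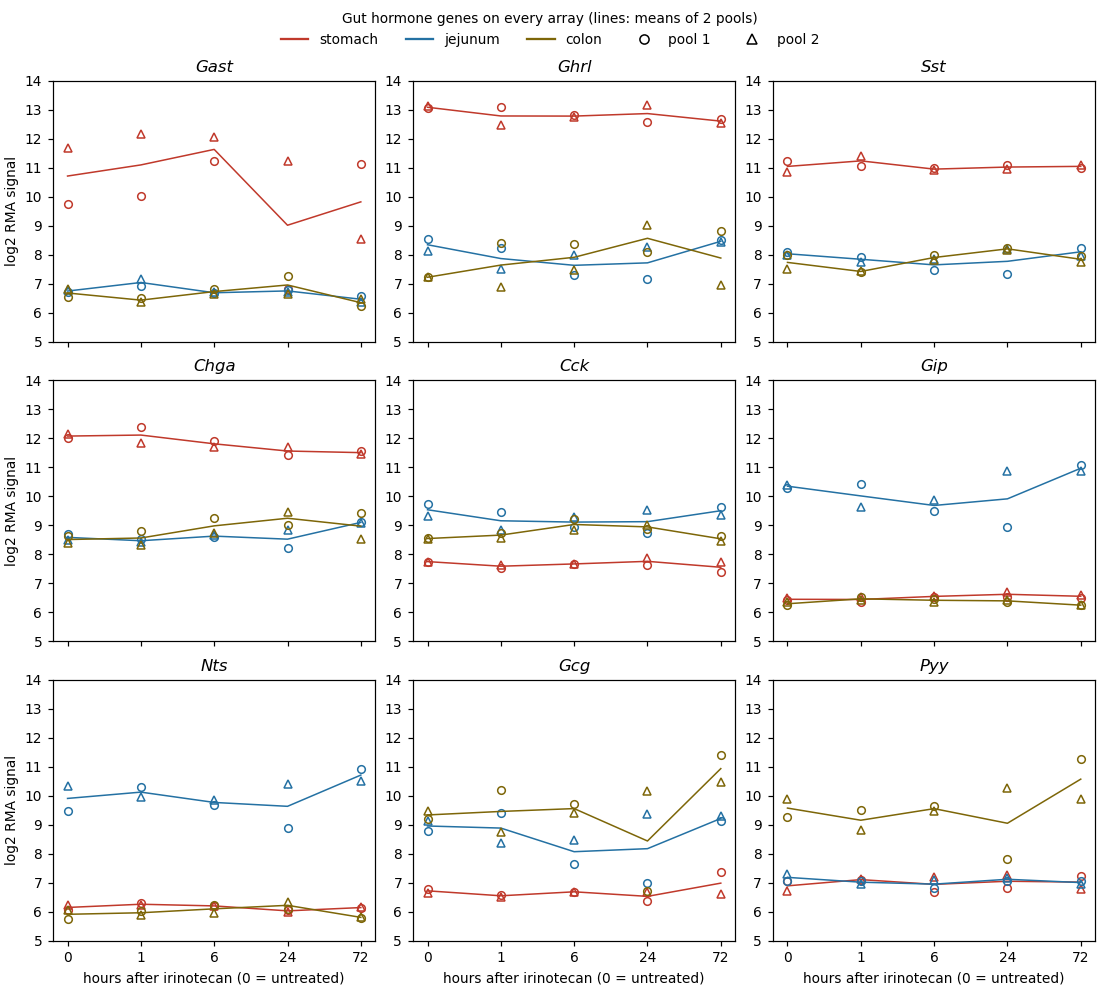
Log2 RMA signal (vertical axis) of each of the 9 genes against hours after irinotecan (0 is untreated), with stomach in red, jejunum in blue and colon in brown. Circles and triangles are the 2 pools of 3 rats, and lines join their means. Gast spreads from 6.81 to 12.17 in stomach, and Gcg and Pyy in colon each drop on 1 array at 24 h.

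Ghrl encodes ghrelin, the appetite-stimulating peptide of the stomach's X/A-like cells. Its untreated arrays read 13.06 and 13.12 in stomach, 8.54 and 8.14 in jejunum, and 7.21 and 7.22 in colon. The tissues do not overlap. Stomach was 26.8-fold above jejunum (log2 difference 4.75, SE 0.53, adjusted p = 9.3e-07) and 58.4-fold above colon (5.87, SE 0.53, adjusted p = 9.8e-08). The step from jejunum to colon, 1.12 (95% interval 0.0069 to 2.24), missed the threshold (adjusted p = 0.0917), but passed it with array weights (adjusted p = 0.0265) and in a fit of the 6 untreated arrays alone (adjusted p = 0.00013).

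Gast, which encodes the antral acid-stimulating hormone gastrin, was read at 9.75 and 11.68 in untreated stomach, 6.70 and 6.78 in jejunum, and 6.52 and 6.83 in colon. Both stomach arrays are above every other array, but they are also far from each other. The difference was 3.97 to jejunum (SE 0.97, adjusted p = 0.00375) and 4.04 to colon (SE 0.97, adjusted p = 0.00373). With stomach 0 h replicate 2 left out, the adjusted p rose to 0.0708 and 0.0663.

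Sst, the gene of the inhibitory D-cell hormone somatostatin, was at 11.22 and 10.86 in untreated stomach, 8.08 and 7.98 in jejunum, and 7.97 and 7.49 in colon. Chga, the gene of chromogranin A, a granule protein shared by most endocrine cell types, was at 12.02 and 12.13, 8.69 and 8.47, and 8.63 and 8.38 in the same order. For both genes stomach stands alone. Sst was 8.08-fold higher in stomach than in jejunum (adjusted p = 1.2e-09) and Chga 11.3-fold (adjusted p = 3.6e-09). Jejunum and colon differed by 0.30 in Sst (95% interval -0.14 to 0.74) and 0.07 in Chga (95% interval -0.47 to 0.62).

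Gip, the gene of the K-cell incretin GIP, was at 10.29 and 10.40 in untreated jejunum, against group means of 6.44 in stomach and 6.29 in colon. Nts, the gene of neurotensin, an N-cell peptide released by fat, was at 9.47 and 10.35 in jejunum, with group means of 6.14 and 5.91. Across all times, neither gene exceeded 6.70 (Gip) or 6.35 (Nts) on any stomach or colon array, so both were jejunal in all 10 arrays. Gip was 14.97-fold and 16.7-fold higher in jejunum than in stomach and colon, and Nts 13.6-fold and 16.0-fold (largest of the 4 adjusted p = 5.0e-08). Cck, the gene of the gallbladder-contracting I-cell hormone cholecystokinin, stepped down more gently, from 9.74 and 9.32 in jejunum to 8.57 and 8.51 in colon and 7.74 and 7.74 in stomach. Jejunum exceeded colon by 0.99 (SE 0.23, adjusted p = 0.00173), and colon exceeded stomach, which was lower by 0.80 on the log2 scale (SE 0.23, adjusted p = 0.0109). The call between stomach and colon was lost without stomach 0 h replicate 1, stomach 0 h replicate 2 or colon 0 h replicate 1. The difference, stomach minus colon, was then -0.80, -0.80 and -0.77.

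Gcg and Pyy belong to the L-cell, which cuts proglucagon into GLP-1 and GLP-2 and co-releases peptide YY. Untreated Gcg was at 9.21 and 9.47 in colon, 8.79 and 9.13 in jejunum, and 6.78 and 6.65 in stomach. Untreated Pyy was at 9.28 and 9.87 in colon, 7.06 and 7.31 in jejunum, and 7.06 and 6.72 in stomach. Jejunum was nearer colon than stomach for Gcg, and nearer stomach than colon for Pyy. Colon exceeded jejunum 5.25-fold in Pyy (adjusted p = 0.00107), while the Gcg difference, jejunum minus colon, was -0.38 (95% interval -2.02 to 1.26) and passed only in the fit of the 6 untreated arrays (adjusted p = 0.0389). The lower Gcg of stomach (adjusted p = 0.0347 against jejunum and 0.0151 against colon) was lost whichever of the untreated arrays compared was left out.

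After irinotecan, no member passed the threshold against 0 h in any of the 12 comparisons of a tissue and time (limma), and 9 of the 108 single tests had an unadjusted p under 0.05. The background was low in stomach, where 0.0161%, 0.0322%, 0.0161% and 0.00644% of all probe sets passed at 1, 6, 24 and 72 h. In jejunum it was 0.0354%, 3.49%, 0.409% and 23.9%, so only at 72 h was the background itself wide. In colon it was 0%, 1.19%, 1.14% and 1.32%. An unadjusted p under 0.05 was found for 0, 0, 1 and 1 members in stomach at 1, 6, 24 and 72 h. Of all 31042 probe sets, 1776, 2741, 2589 and 2346 had such a p there. In jejunum 1, 0, 0 and 2 members had it, against 1467, 6189, 4966 and 12394 of all probe sets. In colon 0, 1, 3 and 0 members had it, against 4624, 4381, 5196 and 5337. The smallest adjusted p of a member was 0.0566, for Chga in jejunum at 72 h.

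**Figure D2:**
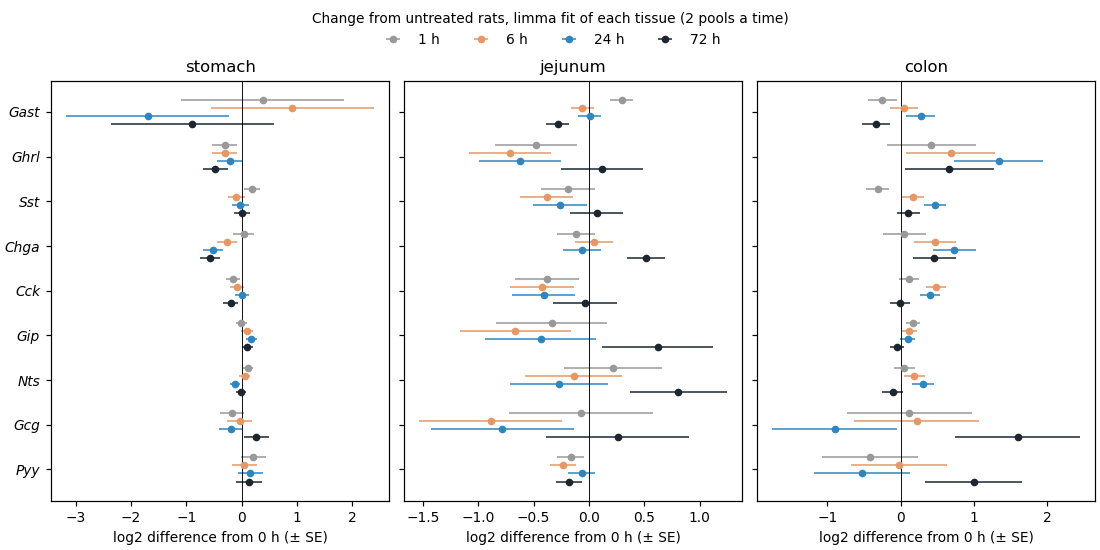
Log2 difference from untreated rats (horizontal axis, a different range in each panel) for each gene, with its standard error from the limma fit of the tissue's 10 arrays, colours marking 1, 6, 24 and 72 h. The widest bars belong to Gast in stomach (SE 1.47) and Gcg in colon (SE 0.85), and no point passed the adjusted threshold.

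Any change from 0 h was called by limma's F test for 0 of 9 members in stomach (0.0387% of all probe sets) and 0 of 9 in colon (4.59%). At an unadjusted p under 0.05 were 1 and 2 members, and 3288 and 8330 of all 31042 probe sets. In jejunum a change was called for 1 of 9 (19.2% of all), which was Gast (limma F test, adjusted p = 0.0352). Its levels there were 6.36 to 7.16, far under its stomach level. That call was lost when 7 of the 10 arrays were left out in turn, with adjusted p up to 0.131. Between 24 and 72 h no member passed in stomach, jejunum or colon, where 0.00322%, 12.9% and 6.73% of all probe sets did. An unadjusted p under 0.05 was found for 0, 3 and 6 members, and for 4653, 9710 and 8189 of all 31042 probe sets. No member's response differed among the tissues at 1, 6, 24 or 72 h by the interaction test, where 0.00322%, 0.251%, 0.229% and 2.28% of all probe sets did. There, 0, 1, 2 and 1 members had an unadjusted p under 0.05, as did 2815, 4256, 4088 and 6076 of all probe sets.

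In the jejunum, 7 of the 9 genes shared their lowest array. Jejunum 24 h replicate 1, the array with the widest GAPDH gap, was the lowest of the 10 jejunum arrays for Gcg, Gip, Nts, Ghrl, Cck, Sst and Chga. The exceptions were Gast and Pyy, which are at low levels there. On that array the smooth muscle list median was 11.23, against 9.90 to 10.62 at 0, 1 and 6 h, the enteric neuron median was the highest at 7.66, and the epithelium median was the lowest at 11.66. The part of RNA quality and tissue make-up in these low values was not tested.

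**Figure D3:**
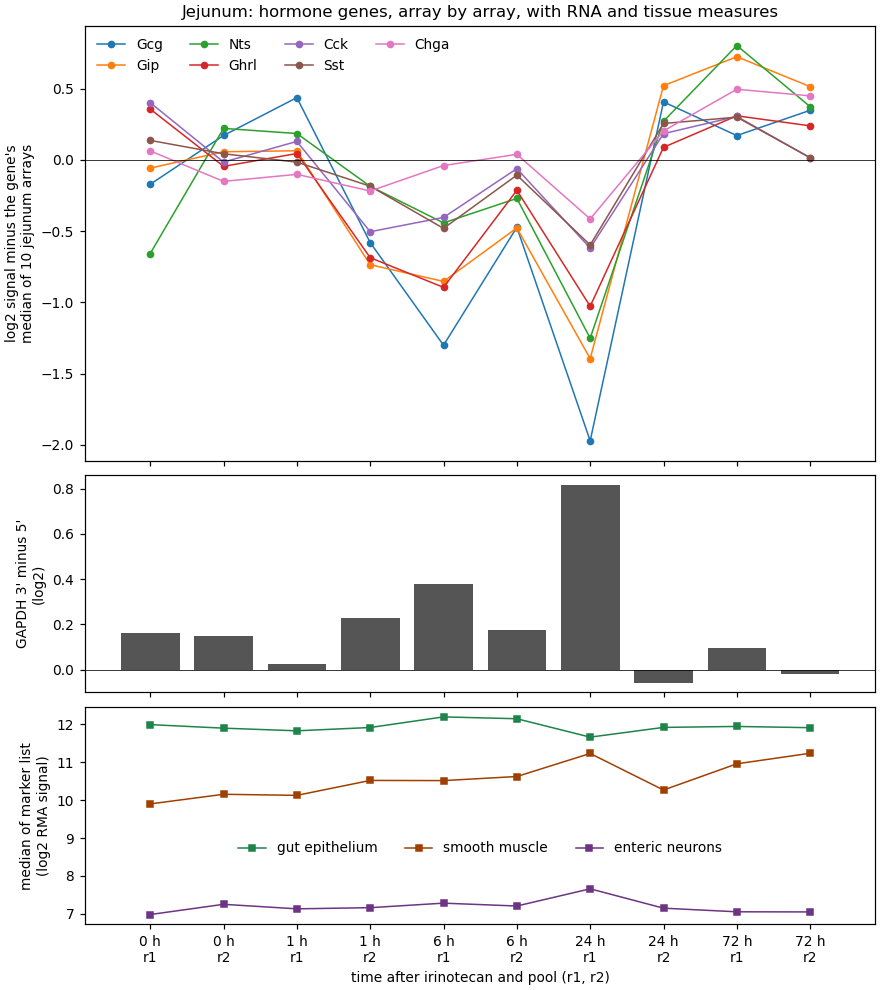
Top, log2 signal of 7 hormone genes on each jejunum array minus that gene's median of 10 arrays; middle, GAPDH 3′ minus 5′ signal (log2); bottom, median log2 signal of marker lists for epithelium, smooth muscle and neurons. Lines only link the points of a gene or list; the 24 h r1 array is lowest for all 7 genes and has the tallest GAPDH bar, 0.82.

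Gcg had the widest jejunal range. It read 8.79 and 9.13 at 0 h, 9.39 and 8.38 at 1 h, 7.66 and 8.48 at 6 h, 6.98 and 9.36 at 24 h, and 9.13 and 9.30 at 72 h. Both 6 h arrays lie below both untreated arrays, the 24 h arrays lie on either side of them, and the 72 h arrays are back within or just above them. The difference at 6 h was -0.89 (95% interval -2.35 to 0.57, adjusted p = 0.48).

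Gip read 10.29 and 10.40 at 0 h, 10.41 and 9.61 at 1 h, 9.49 and 9.87 at 6 h, 8.95 and 10.87 at 24 h, and 11.07 and 10.86 at 72 h. It was low on both 6 h arrays and high on both 72 h arrays, without overlap with 0 h at either time. The differences were -0.67 at 6 h (95% interval -1.80 to 0.47) and 0.62 at 72 h (95% interval -0.51 to 1.75). Nts read 9.47 and 10.35, 10.31 and 9.94, 9.68 and 9.86, 8.87 and 10.40, and 10.93 and 10.50 in the same order of times. Its 72 h arrays were above every earlier array, at 0.81 over 0 h (SE 0.44, adjusted p = 0.20).

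Ghrl and Cck had similar courses in the jejunum. Ghrl read 8.54 and 8.14 at 0 h, 8.23 and 7.50 at 1 h, 7.29 and 7.97 at 6 h, 7.16 and 8.27 at 24 h, and 8.49 and 8.42 at 72 h. Cck read 9.74 and 9.32, 9.47 and 8.84, 8.94 and 9.28, 8.72 and 9.52, and 9.64 and 9.35. Both were under their untreated arrays at 6 h and level with them at 72 h. At 6 h the difference was -0.71 in Ghrl (SE 0.37, adjusted p = 0.324) and -0.43 in Cck (SE 0.29, adjusted p = 0.446).

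Sst read 8.08 and 7.98 at 0 h, 7.92 and 7.75 at 1 h, 7.46 and 7.83 at 6 h, 7.34 and 8.19 at 24 h, and 8.24 and 7.95 at 72 h, again with both 6 h arrays below both untreated arrays. Chga moved least at 6 h and most at 72 h: it read 8.69 and 8.47, 8.52 and 8.40, 8.58 and 8.66, 8.21 and 8.83, and 9.12 and 9.07. Both 72 h arrays were above every other jejunum array, 1.43-fold over 0 h (log2 difference 0.52, SE 0.17, adjusted p = 0.0566). Pyy stayed between 6.81 and 7.31 on all 10 arrays.

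At 6 h, then, 5 of 9 members (Gcg, Ghrl, Gip, Cck and Sst) had both arrays below both untreated arrays, where 33.3% of all probe sets did. At 72 h 3 of 9 (Gip, Nts and Chga) had both above, against 29.7% of all probe sets. At that time 2 of 9 (Gast and Pyy) had both below, against 43.8% of all probe sets. Mcpt1, a mucosal mast cell protease, read 9.51 and 10.00 at 0 h, 7.24 and 7.61 at 6 h and 7.21 on 24 h replicate 1, while the list median of mast cell genes stayed between 6.49 and 6.80. Smooth muscle genes had a median of 10.96 and 11.24 at 72 h against 9.90 and 10.16 at 0 h.

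The jejunal results turned on the 24 h arrays. With the wide-gap array, replicate 1, left out of the jejunum fit, 4 of 9 members passed at 72 h against 0 h, where 37.8% of all probe sets did. They were Chga (0.52, adjusted p = 0.00181), Nts (0.81, adjusted p = 0.0208) and Gip (0.62, adjusted p = 0.0358), all higher, and Gast (-0.28, adjusted p = 0.0468), lower. Over the whole course 6 of 9 then passed (Chga, Gip, Gcg, Nts, Sst and Gast; 41.1% of all). None passed at 1 or 6 h, where 0.213% and 13.6% of all probe sets did. At 24 h this fit held 1 array, and differences from it are given below. With 24 h replicate 2 left out instead, 7 of 9 were lower at 24 h than at 0 h (16.5% of all), from -0.37 in Chga to -1.97 in Gcg, a result that rests on the wide-gap array alone. With both 24 h arrays the differences were -0.78 in Gcg, -0.44 in Gip and -0.27 in Nts, and without the wide-gap array they were 0.41, 0.52 and 0.49, none past the threshold.

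In the stomach, Gast had the widest spread of any member. It read 9.75 and 11.68 at 0 h, 10.02 and 12.17 at 1 h, 11.22 and 12.04 at 6 h, 6.81 and 11.22 at 24 h, and 11.11 and 8.53 at 72 h. The pools of a time were up to 4.42 apart, while the time means were at most 2.62 apart. The difference from 0 h was 0.92 at 6 h (95% interval -2.47 to 4.30), -1.70 at 24 h (95% interval -5.08 to 1.69) and -0.89 at 72 h (95% interval -4.28 to 2.49). These intervals admit changes of several fold in either direction, and the direction turned with 1 array: the 24 h difference was 0.51 once its low array, replicate 1, was dropped. The 72 h difference was 0.40 when its own replicate 2 was dropped and 0.07 when the higher untreated array was, and dropping the lower untreated array made the 6 h difference -0.05.

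The low Gast arrays were also arrays of forestomach markers. Krt5, a keratin of squamous epithelium, was at 11.04 on 24 h replicate 1 and 10.98 on 72 h replicate 2, the arrays where Gast was lowest, and at 7.07 to 9.58 on the other 8. The squamous list, 8 of 9 measured, had medians of 10.39 and 11.63 on these arrays. Tff2, a mucous neck and antral gland peptide, was at 10.12 on 24 h replicate 1 and at least 12.71 elsewhere, and that array also had the widest stomach GAPDH gap. How the stomach was sampled, and its part in the Gast values, was not tested.

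The other stomach genes were steadier. Ghrl read 13.06 and 13.12 at 0 h, 13.08 and 12.49 at 1 h, 12.82 and 12.74 at 6 h, 12.57 and 13.17 at 24 h, and 12.68 and 12.53 at 72 h. Sst stayed between 10.86 and 11.40. Chga read 12.02 and 12.13, 12.39 and 11.84, 11.91 and 11.71, 11.41 and 11.70, and 11.55 and 11.46, with the 24 h and 72 h arrays all below the untreated ones. Its difference was -0.52 at 24 h (SE 0.18, adjusted p = 0.581) and -0.57 at 72 h (SE 0.18, adjusted p = 0.656). At 72 h 3 of 9 members (Chga, Ghrl and Cck) had both arrays below both untreated arrays, against 29.5% of all probe sets.

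Gip, Nts, Pyy and Gcg were low throughout the stomach. Gcg lay between 6.37 and 6.78 on 9 arrays and was at 7.37 on 72 h replicate 1. The pancreatic genes Cpa1 (13.14) and Ins2 (8.94, against at most 6.55 elsewhere in stomach) were highest on the same array, and their part in its Gcg value was not tested.

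**Figure D4:**
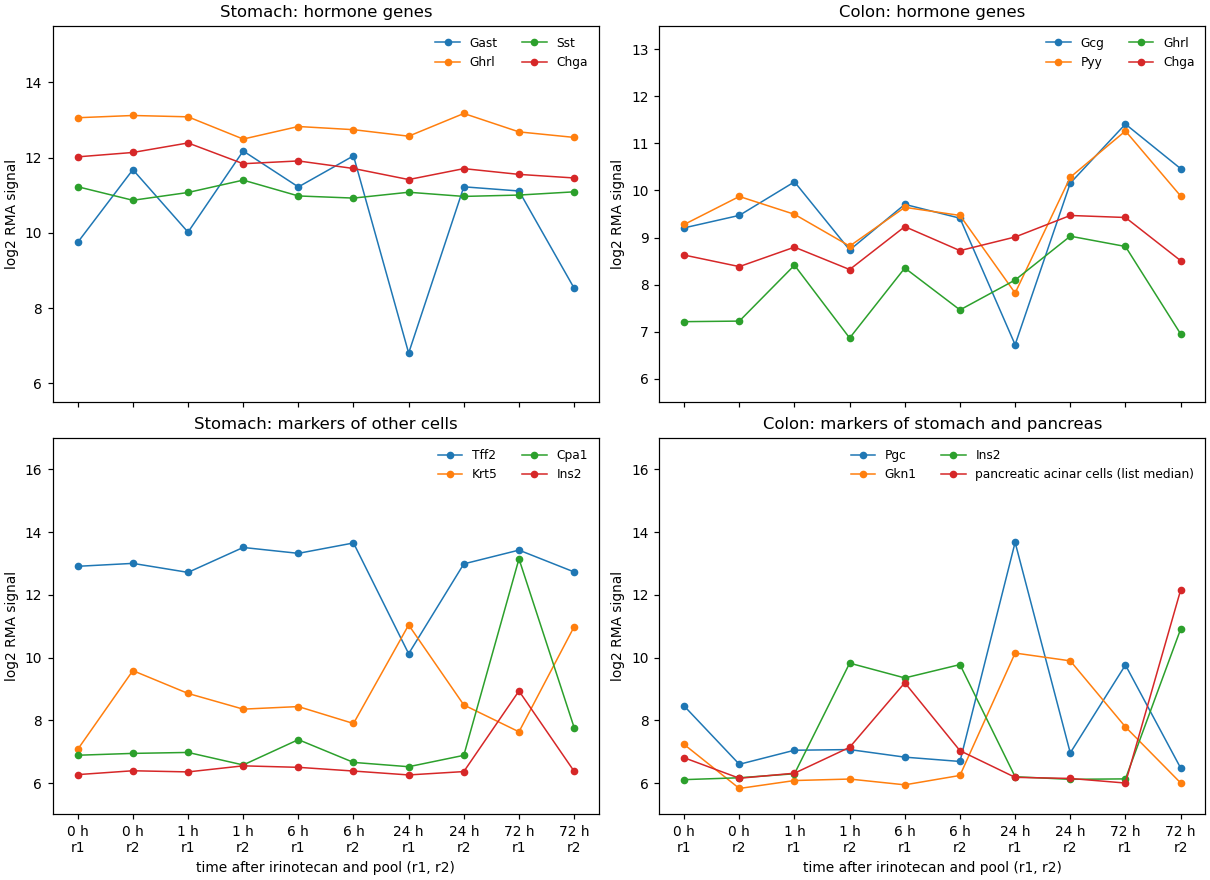
Log2 RMA signal of hormone genes (top) and of markers of other cells (bottom) on each array of stomach (left) and colon (right), with lines only linking points of a gene or list. In stomach Gast is lowest (6.81 and 8.53) where Krt5 is highest (11.04 and 10.98); in colon Gcg and Pyy are lowest (6.72 and 7.82) where Pgc reads 13.67.

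In the colon, the L-cell genes Gcg and Pyy shared their lowest and highest arrays. Gcg read 9.21 and 9.47 at 0 h, 10.18 and 8.73 at 1 h, 9.70 and 9.41 at 6 h, 6.72 and 10.16 at 24 h, and 11.41 and 10.46 at 72 h. Pyy read 9.28 and 9.87, 9.49 and 8.82, 9.64 and 9.47, 7.82 and 10.28, and 11.26 and 9.88. For both, 24 h replicate 1 was the lowest array and 72 h replicate 1 the highest. Both 72 h arrays exceeded both untreated arrays in these 2 of 9 members, where 22.1% of all probe sets did. For Pyy the margin was small, with 9.884 on 72 h replicate 2 against 9.873 on 0 h replicate 2. Another 2 of 9 (Gast and Gip) had both 72 h arrays below, against 26.5% of all probe sets.

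At 72 h Gcg was 3.03-fold over 0 h (log2 difference 1.60, 95% interval -0.29 to 3.49, adjusted p = 0.379) and Pyy 2.00-fold (1.00, 95% interval -0.46 to 2.46, adjusted p = 0.492). From 24 to 72 h the differences were 2.50 in Gcg (SE 0.85, adjusted p = 0.101) and 1.52 in Pyy (SE 0.66, adjusted p = 0.174). The low 24 h array was the one with Pgc at 13.67 and the parietal genes Atp4a at 9.41 and Atp4b at 8.69, against at most 7.01 and 6.74 on other colon arrays. On it Car1 was at 13.06 and the colon list median, 12.37, was the highest of the 10. The islet gene Ins2 was at 9.35 to 10.90 on 1 h replicate 2, both 6 h arrays and 72 h replicate 2. It was highest on 72 h replicate 2, where Gcg was second highest, and at 6.13 on 72 h replicate 1, where Gcg was highest. The part of gastric and pancreatic tissue in the Gcg and Pyy values was not tested.

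Leaving out the 3 colon arrays with pancreatic or gastric signal (6 h replicate 1, 24 h replicate 1 and 72 h replicate 2) put 3 of 9 members past the threshold at 72 h, where 5.65% of all probe sets were. They were Pyy (1.69, adjusted p = 0.0187), Chga (0.92, adjusted p = 0.0362) and Gcg (2.07, adjusted p = 0.037), all higher, and each rests on 72 h replicate 1 alone, with Pgc at 9.76 on it. The rule behind this choice read only the acinar list median and Pgc, so some arrays with high Ins2 stayed in. The interaction fit by this rule also lacked stomach 72 h replicate 1, so stomach and colon each had 1 array at 72 h. Its F statistic at 72 h was 14.8 for Pyy and 10.4 for Chga, values that rest on those single arrays. With 24 h replicate 2 left out instead, Gcg was lower at 24 h than at 0 h (log2 difference -2.62, adjusted p = 0.0324; 1.92% of all), resting on the array with gastric signal. With both 24 h arrays it was -0.90, and without replicate 1 it was 0.82; Pyy went from -0.52 to 0.71, none past the threshold.

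Other colon members had 24 h arrays above their untreated ones, though none passed the test. Ghrl read 7.21 and 7.22 at 0 h, 8.41 and 6.86 at 1 h, 8.35 and 7.46 at 6 h, 8.10 and 9.03 at 24 h, and 8.81 and 6.95 at 72 h. Chga read 8.63 and 8.38, 8.80 and 8.32, 9.23 and 8.72, 9.01 and 9.47, and 9.43 and 8.51. At 24 h neither gene overlapped its untreated arrays, while at 72 h the replicates parted. The 24 h differences were 1.34 in Ghrl (SE 0.61, adjusted p = 0.30) and 0.74 in Chga (SE 0.29, adjusted p = 0.243).

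Sst in colon read 7.97 and 7.49 at 0 h, 7.41 and 7.43 at 1 h, 8.002 and 7.80 at 6 h, 8.23 and 8.17 at 24 h, and 7.94 and 7.74 at 72 h. Cck read 8.57 and 8.51, 8.74 and 8.57, 9.20 and 8.85, 8.88 and 8.999, and 8.61 and 8.45, highest at 6 and 24 h. The largest differences were 0.47 in Sst at 24 h (SE 0.15, adjusted p = 0.172) and 0.49 in Cck at 6 h (SE 0.13, adjusted p = 0.139). In all, 6 of 9 members (Ghrl, Chga, Sst, Cck, Nts and Gip) had both 24 h arrays above both untreated arrays, against 28.2% of all probe sets. Among them Nts and Gip were at low signal in colon. Their group means at 0 and 24 h were 5.91 and 6.22 for Nts, and 6.29 and 6.39 for Gip.

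Some genes of stomach and small intestine were also high on those 24 h colon arrays. Gkn1, a gastric surface mucous cell gene, was at 10.14 and 9.89 there and at 7.79 or less on the other 8 colon arrays, and its relative Gkn2 at 11.41 and 9.84 against at most 8.51. Pgc, Atp4a and Atp4b were high on replicate 1, as given above, but at 6.96, 6.64 and 6.39 on replicate 2, within the range of the other 8. Apoa4, an enterocyte gene of the small intestine, was at 10.31 on 24 h replicate 2, and Fabp2 was at 11.29 and 12.06 at 24 h and 11.67 on 6 h replicate 1. Their part in the colon values of Ghrl, Chga and Sst, which are higher in stomach, was not tested.

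The genes whose pattern over the arrays was most like that of each member are given as a description, over the 10 arrays of the tissue where the member is highest, which share pools, RNA quality and tissue make-up. For Cck in jejunum the closest was Ghrl (Pearson r 0.957, Spearman rho 0.952, r 0.920 without the 2 outermost arrays). For Gip they were Cyba, Tagln2 and Smim7 (0.984 to 0.987), and for Nts Pld4, Snap23 and Bet1l (0.929 to 0.938). For Gcg in colon they were Ramp1, Fxyd3 and Plet1 (0.977 to 0.982), and for Pyy Cmtm8, Rab15 and Timm13 (0.968 to 0.977). In stomach they were Resp18, an endocrine granule protein, for Ghrl (0.939), Mccc1 for Chga (0.940) and Gcnt3, Cartpt and Suox for Gast (0.950 to 0.959), whereas no gene exceeded 0.696 for Sst. Without the outermost arrays the values dropped to 0.764 to 0.870 for Gast, 0.840 to 0.895 for Pyy, 0.863 to 0.911 for Gcg and 0.854 to 0.880 for Nts. They were then 0.970 to 0.972 for Gip, 0.930 for Resp18 with Ghrl and 0.874 for Mccc1 with Chga. The 3 closest genes of Sst were then at 0.060 to 0.619.

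Genes that make, store, release and receive these hormones were read from 6 lists of 111 genes, of which 87 were measured. An unadjusted limma p under 0.05 was found in 50 of 348 single tests in stomach, 67 of 348 in jejunum and 78 of 348 in colon. Of all 31042 probe sets, 1776, 2741, 2589 and 2346 had such a p in stomach at 1, 6, 24 and 72 h. Those of jejunum and colon are given above. In stomach none of the 87 passed the adjusted threshold at any time (limma). In jejunum 2 were lower at 6 h (Ddc and Qpct, both lost with any 1 of the 4 arrays left out) and 1 at 24 h (Ddc, lost with either 0 h array left out), and at 72 h 5 were higher and 13 lower, 20.7% of those measured against 23.9% of all probe sets. With any 1 of the 4 jejunum arrays at 0 or 72 h left out, 5 to 9 passed, and with the wide-gap 24 h array left out 33 did, where 37.8% of all probe sets did. In colon 1 was higher at 6 h (1.19% of all probe sets passed), 4 were lower at 24 h (1.14%), and at 72 h 1 was higher and 1 lower (1.32%). With either 0 h colon array left out none of these passed. With the 3 colon arrays of pancreatic or gastric signal left out, 0, 7 and 7 passed at these times, against 0.535%, 1.98% and 5.65% of all probe sets.

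Among 7 genes of amine handling, Slc6a4 and Maob fell in jejunum at 72 h and Ddc at 6 and 24 h. Slc6a4, the serotonin transporter of enterocytes, was at 10.00 and 9.75 in untreated jejunum, 9.66 and 9.52 at 6 h, 10.02 and 9.98 at 24 h, and 9.06 and 9.09 at 72 h. Maob, which breaks down amines, was at 10.13 and 10.25, 9.87 and 9.72, 10.11 and 10.24, and 8.82 and 9.57 at the same times. Both were below every untreated array at 6 h, near their untreated level at 24 h, and lowest at 72 h, and of the differences from 0 h only that at 72 h passed the test. Slc6a4 fell by 0.80 on the log2 scale (SE 0.10, adjusted p = 0.00166) and Maob by 1.00 (SE 0.20, adjusted p = 0.0103), and the Slc6a4 call was kept whichever array was left out. Vil1, an enterocyte brush border gene, was also lower at 72 h, at 12.12 and 12.18 against 12.74 and 12.76 at 0 h. The epithelium list median was 11.95 and 11.91 against 11.99 and 11.90, and the smooth muscle median was higher, as given above. The part of tissue make-up in these falls was not tested.

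Ddc, the decarboxylase that completes serotonin synthesis and is also abundant in enterocytes, was at 10.09 and 9.84 in untreated jejunum, 9.16 and 9.17 at 6 h, 8.67 and 9.16 at 24 h, and 9.71 and 9.63 at 72 h. In colon it was at 9.01 and 9.21, 8.31 and 8.45, 7.86 and 8.32, and 8.81 and 8.68. By this probe set it fell in both tissues by 24 h and rose from 24 to 72 h, by 0.76 in jejunum and 0.65 in colon. The difference from 0 h was -0.81 at 6 h (adjusted p = 0.0249) and -1.05 at 24 h (adjusted p = 0.0312) in jejunum, and -1.02 at 24 h in colon (adjusted p = 0.0147). Its other, less bright probe set gave -0.22, -0.07 and -0.05, and from 24 to 72 h it went the opposite way, -0.33 in jejunum (adjusted p = 0.0552) and -0.18 in colon, none past the threshold.

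**Figure D5:**
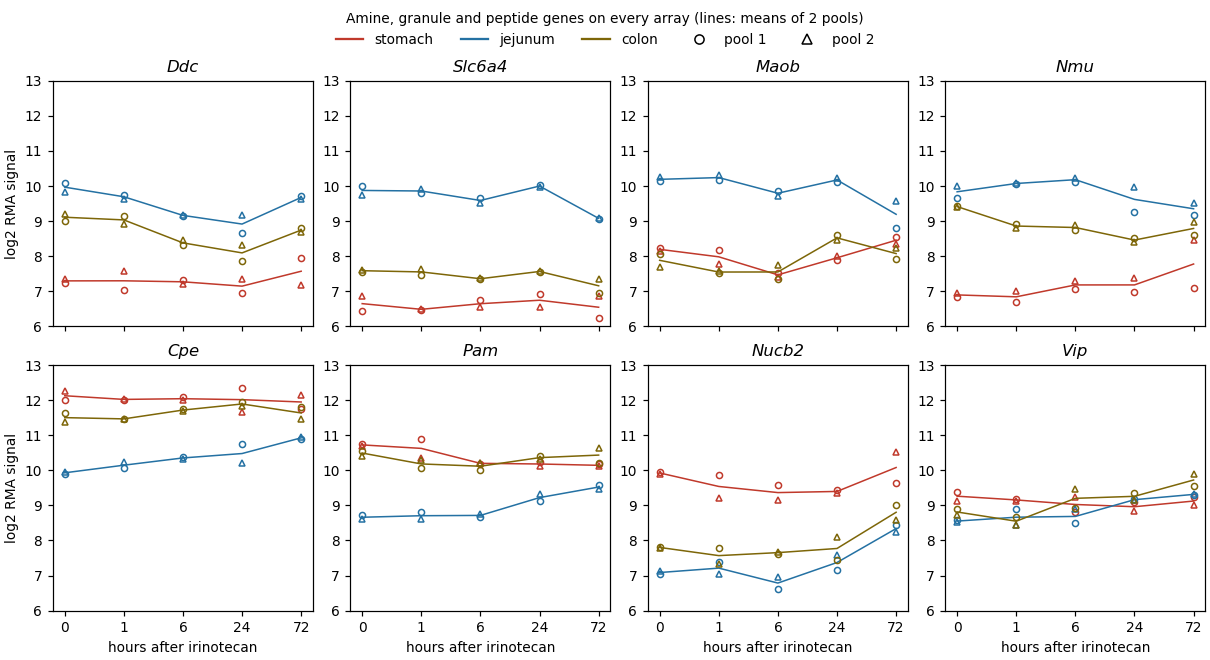
Log2 RMA signal of 8 amine, granule and peptide genes against hours after irinotecan, colours marking tissues, circles and triangles the 2 pools and lines their means. Ddc dips in jejunum and colon by 24 h, Slc6a4 and Maob are lower in jejunum at 72 h, and Nucb2 is higher in jejunum at 72 h.

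Among granule and processing genes, Cpe and Pam rose in jejunum at 72 h. Cpe, the carboxypeptidase that trims prohormones, was at 9.90 and 9.96 at 0 h and 10.90 and 10.95 at 72 h (log2 difference 1.00, adjusted p = 0.00321). Pam, which amidates peptides, was at 8.72 and 8.60 and then 9.57 and 9.47 (0.86, adjusted p = 0.00151), although its other 2 probe sets gave -0.14 and -0.16. Of the 17 genes of that list 2 rose and 1, Rph3al, fell. Among 15 other peptides, Nucb2, the nesfatin-1 precursor, rose from 7.03 and 7.14 to 8.43 and 8.25 (1.25, adjusted p = 0.00247). Vip, an enteric neuron peptide, rose by 0.76 (adjusted p = 0.0121) and Calca fell by 0.28 on the log2 scale (adjusted p = 0.0424). Calca was at low signal, with group means of 7.07 at 0 h and 6.79 at 72 h. Its other probe sets gave -0.12 and -0.10, not past the threshold. Smooth muscle list medians were higher at the same time, as given above, the neuron median was 7.05 on both 72 h arrays, and their part was not tested.

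Of 15 enteroendocrine transcription factors, 3 fell and 1 rose in jejunum at 72 h, a share near the 23.9% of all probe sets called there. Fev, the serotonergic cell factor, fell by 0.48 on the log2 scale (adjusted p = 0.00518), Isl1 by 0.39 (adjusted p = 0.0103) and Neurod1 by 0.29 (adjusted p = 0.0345). All 3 were at low signal, with group means between 6.41 and 7.51. Foxa2, a factor of the wider gut epithelium, rose by 0.47 (adjusted p = 0.0485). Of 26 receptors 5 fell (Cckbr, Npy5r, Glp1r, Ntsr1 and Grpr, by 0.26 to 0.51 on the log2 scale), and of 7 nutrient sensors Abcc8 fell, both shares below that of all probe sets. Npy5r, Grpr, Glp1r and Abcc8 were at low signal, with group means between 5.55 and 6.88. Other probe sets gave -0.32 for Cckbr, past the threshold, and -0.28 for Npy5r, not past it.

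In colon, Nmu, the gene of the enteric peptide neuromedin U, was at 9.44 and 9.39 at 0 h, 8.51 and 8.40 at 24 h, and 8.61 and 8.97 at 72 h. It fell by 0.95 on the log2 scale at 24 h (adjusted p = 0.00784) and by 0.62 at 72 h (adjusted p = 0.0489). Maoa fell by 0.77 at 24 h (adjusted p = 0.0467), and the somatostatin receptor gene Sstr1 by 1.06 (adjusted p = 0.0367), with -0.54 and 0.12 from its other 2 probe sets. Vgf, a granule protein, rose by 0.62 at 6 h (adjusted p = 0.0409), and Vip rose by 0.91 at 72 h (adjusted p = 0.0462). Between 24 and 72 h, 5 rose (Nucb2, Ptprn2, Ppy, Ddc and Maoa) and 2 fell (Etv1 and Vgf), where 6.73% of all probe sets passed. Other Etv1 probe sets gave -0.41, -0.36, -0.11 and -0.09, none past the threshold. Each of these calls from 24 to 72 h was lost with some array left out. Leaving out 24 h replicate 1, the array with gastric signal, or 72 h replicate 1 left 1 array at that time. Fewer of the 87 then passed, and fewer of all probe sets did too. The rule on the acinar list median and Pgc left 1 colon array at 24 h and 1 at 72 h. The kept 24 h array, replicate 2, still had high Gkn1 and Gkn2, as given above. The differences were then 0.93 in Nucb2, 0.63 in Ptprn2, 0.49 in Ddc, 0.56 in Maoa, -0.64 in Etv1 and -0.49 in Vgf. All of these were smaller in size than in the fit reported. Ppy, the pancreatic polypeptide gene of the Pyy family, was at 6.78 and 7.28 at 24 h and 8.12 and 7.59 at 72 h, lowest and highest on the same arrays as Pyy and Gcg.

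Of the 40 such changes named by the rule in the methods, 7 passed whichever array was left out: Slc6a4, Cpe, Pam, Nucb2 and Fev in jejunum at 72 h against 0 h, and Slc6a4 and Maob at 72 h against 24 h. None reversed.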

How the data were processed

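Affymetrix rat arrays of 3 tissues at 5 times, 2 per group, each hybridised with RNA pooled from 3 rats, were analysed. The authors deposited log2 signals made by RMA (background correction, normalization across arrays and probe summary), per the submitters' processing notes, and no scanner intensities were used here. The 57 array controls among the 31099 probe sets were set aside, which left 31042 to test. The platform annotation gives 20826 of all probe sets 1 gene symbol, 436 several and 9780 none. A gene is represented by its probe set of highest mean over the 30 arrays. Symbols were matched to RefSeq on GRCr8, as were the promoters, of which 7 members' were listed.

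limma 3.58.1 in R 4.3.3 fitted each tissue's 10 arrays with 5 times for contrasts with 0 h and of 72 with 24 h. A fit of all 30 arrays gave the untreated tissue differences and the tissue-by-time interaction. Tests were two-sided, adjusted by Benjamini-Hochberg over all probe sets at 0.05, and the scripts were tested on simulated data. The number of arrays limits the precision. The fits treat tissues of the same rats as independent. Replicate numbers were not taken to pair the arrays: same-numbered deviations correlated at -0.58 to 0.43 within a tissue, with 11 of 30 pairs over 0.1, and at -0.22 to 0.50 between tissues at a time, with 5 of 15 over 0.1. At 24 h all 3 tissue pairs were over 0.1 (0.50, 0.32 and 0.36), so that equal numbers there may share rats, which the labels do not settle.

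The members and lists were chosen with earlier results of these data known. All members were named; of 6 pathway lists, genes past the threshold (at most 6 per list and comparison); as most alike, the 3 genes of highest Pearson correlation with an SD of at least 0.25. Alternatives were a filter on dim probe sets, quantile normalization, trended robust variances, array weights, 1 fit of 30 arrays (or of the 6 untreated), a replicate block and leaving out each array. Chosen after seeing the data were fits without arrays whose GAPDH gap exceeded 0.5, and without arrays whose acinar list median or Pgc lay over 2 above the highest untreated array. Other gastric, islet and small intestinal genes were not part of that rule, and some were high on colon arrays it kept. The comparisons for which non-overlap counts are given were also chosen after their values were seen; against 0 h, the other comparisons had 0 to 4 members apart in a direction.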

Additional observations from a re-analysis of the deposited data

Results flagged for a closer look

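The response at 72 h differed among the 3 tissues, by the limma interaction test of the 30 arrays, for 4 genes of hormone processing and amine removal, and for no member. Cpe, the prohormone carboxypeptidase, changed by -0.18 in stomach, 1.00 in jejunum and 0.13 in colon (adjusted p = 0.0413). Pam, the amidating enzyme, changed by -0.58, 0.86 and -0.06 in the same order (adjusted p = 0.00451). Maob, a monoamine oxidase, changed by 0.26, -0.997 and 0.19 (adjusted p = 0.0241). Ptprn2, a granule membrane phosphatase homologue, changed by -0.65, 0.17 and 0.38 (adjusted p = 0.0439). Within a tissue, only the jejunal changes of Cpe, Pam and Maob passed the threshold among these 12 values. The other 2 Pam probe sets moved by -0.14 and -0.16 in jejunum.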

How the results depend on the processing

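No called difference changed sign under any setting run, but many uncalled ones did: with 1 array left out, 47 of the 108 member differences from 0 h, 11 of 27 from 24 to 72 h and 2 of 27 between untreated tissues. Of the members, jejunum at 72 h against 0 h had 2 calls with array weights (Chga and Gast) and 4 without the wide GAPDH gap array. Jejunum over the whole course, 1 call in the fit reported, had 0 with quantile normalization, with 1 fit of 30 arrays and with the replicate block, 3 with array weights, and 6 without the wide-gap array. From 24 to 72 h, dropping dim probe sets gave 1 call in jejunum (Chga), and 1 fit of 30 arrays gave 1 in jejunum (Nts) and 1 in colon (Gcg). Without arrays of pancreatic or gastric signal, colon had 3 calls at 72 h and 2 over the course, and 2 tissue-by-time calls arose at 72 h. Leaving out each array in turn gave 0 to 7 calls in jejunum at 24 h, over the course and from 24 to 72 h. It gave 0 to 3 in colon over the course and from 24 to 72 h, 0 to 1 in colon at 24 h, in stomach from 24 to 72 h and in the interactions at 24 and 72 h, and 6 to 7 and 4 to 6 for untreated stomach against jejunum and colon. The highest jejunum counts came without 24 h replicate 2, and so did the colon calls of Gast, Gcg and Pyy. Each such fit left 1 array at 24 h. The share of all probe sets, not given beside these counts, also moved with the setting. The counts therefore describe the settings, not these genes.

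The 87 pathway genes moved more. With 1 fit of 30 arrays, stomach had 3, 1 and 4 calls at 6, 24 and 72 h, jejunum 1 and 0 at 6 and 24 h, and colon 8 at 24 h. With array weights jejunum had 10, 0 and 36 at 6, 24 and 72 h and 3 from 24 to 72 h, and colon 3 at 6 h and 2 from 24 to 72 h. With the replicate block stomach had 1 at 72 h, jejunum 1 and 0 at 6 and 24 h, and colon 0 at 6 and 72 h. Dropping dim probe sets left 11 in jejunum at 72 h and 0 in colon at 6 and 72 h. Quantile normalization left 0 and 1 in colon at 6 and 72 h and 3 from 24 to 72 h, and trended robust variances 1 in colon at 72 h. Without the wide-gap array jejunum had 9, 3 and 33 at 6, 24 and 72 h and 11 from 24 to 72 h. Without arrays of other organs stomach had 2 at 72 h and 1 from 24 to 72 h, and colon 0, 7 and 7 at 6, 24 and 72 h and 1 from 24 to 72 h. Leaving out each array gave jejunum 0 each time at 6 h, 0 to 12 at 24 h, 5 to 9 at 72 h and 2 to 16 from 24 to 72 h; colon 0 to 1, 0 to 2 and 0 to 3 at 6, 24 and 72 h and 0 to 7 from 24 to 72 h; and stomach 0 to 2 at 72 h and 0 to 1 from 24 to 72 h. Where fewer arrays or fewer probe sets were tested the setting itself differs; otherwise the cause was not tested. Replicate arrays of a time are only 2, so a single array sets many of these counts. As for the members, the share of all probe sets is not beside them, so they describe the settings, not these genes.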
